A study of Mus musculus with 36 samples.

Results

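The SIBLING family (small integrin-binding ligand, N-linked glycoproteins) comprises 5 genes, *Dspp*, *Dmp1*, *Ibsp*, *Mepe* and *Spp1*, which encode secreted acidic phosphoproteins of bone and dentin. The members were taken by symbol, and 5 of the 56246 genes in the expression table of this series were such genes. They were followed in tibial bone of 3 groups of mice at 6 months of age, each with 12 mice, 6 males and 6 females, and 1 RNA-seq library per mouse. Wild-type mice received no treatment. LMNA G/G mice are a model of Hutchinson-Gilford progeria syndrome and carry 2 copies of a human *LMNA* transgene with the progeria mutation. They had received saline (saline mice) or an adenine base editor (ABE mice) by retro-orbital injection at postnatal day 14. The base editor was carried by AAV9 and was designed to correct the transgene. The transgene was built from a human bacterial artificial chromosome that also holds *RAB25*, and it was bred within the C57BL/6J line. The transgene is not restricted to bone cells, and the study describes changes in large vessels and subcutaneous fat of LMNA G/G mice as well. Epiphyses and marrow were removed before RNA extraction, and each library reports the cells that remained. In such bulk tissue, fewer cells of a type and less RNA per cell cannot be told apart.

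SIBLING proteins share an RGD sequence that binds integrins, and many serines that the secretory kinase FAM20C phosphorylates, by which they bind calcium and hydroxyapatite. They differ in where they are made. *Dmp1* and *Mepe* are best known from osteocytes, the cells embedded in mineralized bone, where DMP1 promotes mineralization and restrains FGF23, and peptides of MEPE inhibit mineralization. *Ibsp* (bone sialoprotein, a nucleator of mineral) is a product of osteoblasts and of cells at mineralizing fronts. *Spp1* (osteopontin, an inhibitor of crystal growth and an attachment protein for osteoclasts) is made by osteoblasts, osteocytes, osteoclasts and many other cells. *Dspp* is the major phosphoprotein gene of dentin.

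The family forms 1 cluster on mouse chromosome 5. In GENCODE vM21 (GRCm38), the 5 genes stood on the + strand in the order *Dspp* (chr5:104170712-104180127), *Dmp1* (chr5:104202613-104214102), *Ibsp* (chr5:104299171-104311469), *Mepe* (chr5:104325329-104338611) and *Spp1* (chr5:104435118-104441050), over 270339 bp. The 250 bases before the RefSeq start (GRCm38.p6) of the 4 members with an entry are given because those 4 members rose together in the LMNA G/G groups, and a reader can compare what stands before their starts. *Dspp* had no entry. Capitals mark matches on either strand to CCAAT (the CCAAT box), TGTGGT (the core bound by RUNX factors) and TTTAAAT.

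Dmp1 (chr5:104202367-104202616, + strand): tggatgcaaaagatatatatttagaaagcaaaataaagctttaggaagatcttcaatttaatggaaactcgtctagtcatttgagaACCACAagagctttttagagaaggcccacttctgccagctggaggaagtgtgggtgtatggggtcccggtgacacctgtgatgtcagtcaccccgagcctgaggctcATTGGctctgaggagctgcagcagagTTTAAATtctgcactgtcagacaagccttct
Ibsp (chr5:104299037-104299286, + strand): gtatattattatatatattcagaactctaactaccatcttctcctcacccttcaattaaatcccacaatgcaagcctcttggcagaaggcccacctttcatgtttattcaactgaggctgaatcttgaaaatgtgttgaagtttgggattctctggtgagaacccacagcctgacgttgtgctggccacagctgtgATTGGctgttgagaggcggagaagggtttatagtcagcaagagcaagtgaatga
Mepe (chr5:104325079-104325328, + strand): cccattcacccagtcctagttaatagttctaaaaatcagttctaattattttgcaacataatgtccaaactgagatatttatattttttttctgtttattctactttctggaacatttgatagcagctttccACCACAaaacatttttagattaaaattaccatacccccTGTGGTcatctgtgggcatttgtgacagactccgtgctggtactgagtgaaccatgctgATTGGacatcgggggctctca
Spp1 (chr5:104434861-104435110, + strand): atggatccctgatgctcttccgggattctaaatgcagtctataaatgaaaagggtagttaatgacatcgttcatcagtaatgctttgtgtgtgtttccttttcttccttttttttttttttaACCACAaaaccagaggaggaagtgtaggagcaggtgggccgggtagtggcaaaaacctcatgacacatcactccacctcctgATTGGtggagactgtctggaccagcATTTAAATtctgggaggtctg

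The letters CCAAT, read on the opposite strand as ATTGG, stood in 4 of the 4 windows, 57 bases before the start of *Dmp1*, 54 before *Ibsp*, 21 before *Mepe* and 46 before *Spp1*. Of all 32851 RefSeq windows of this length, 33.8% held the same letters. TGTGGT stood in the windows of *Dmp1*, *Mepe* and *Spp1*, in *Mepe* at 2 places, and in 14.05% of all windows. TATAAA (the TATA box) stood in those of *Ibsp*, *Mepe* and *Spp1*, against 12.4% of all windows. In *Ibsp* and *Mepe* it was read on the opposite strand, as TTTATA, 28 and 173 bases before the start. In *Spp1* it stood on the + strand, 211 bases before the start. TTTAAAT, which was chosen after the sequences were seen, stood 31 bases before the start of *Dmp1* and 20 before that of *Spp1*, and in 5.25% of all windows. CANNTG (the E-box) stood in all 4 windows and in 66.2% of all windows, TAATTA (a homeodomain core) in that of *Mepe* and in 4.84%, and TGANTCA (AP-1) in 0 of the 4 and in 6.75%. The RefSeq start of *Ibsp* lies 116 bases after the GENCODE start, so that its window overlaps the annotated first exon. A match of letters is a description of the sequence and does not show that a factor binds.

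The libraries held between 48064068 and 116206662 reads on genes. Values below are TPM, which relate reads to gene length and so can be compared between genes, rescaled by the median ratio of each library ("scaled TPM"). One ABE female, replicate 1, stood apart with a scaling factor of 0.216 where the lowest saline factor was 0.831. Results on scaled TPM that it moves are given without it too. The mouse numbers of wild-type animals form a series of their own, so that genotype and that series cannot be told apart in comparisons with wild-type. Differences were tested with limma on log2(scaled TPM + 0.5) over 16123 genes with a Benjamini-Hochberg adjusted p of 0.05 as the threshold, and a fold change is on that scale.

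*Dspp* was barely detected. Its 15 reads in all came from 12 of the 36 libraries, 3 wild-type, 6 saline and 3 ABE, with at most 3 reads in a library. A count of 3 reads corresponded to between 0.00155 and 0.00473 scaled TPM. No difference in *Dspp* was detectable at this depth, and it did not pass the filter of a mean of 0.5 TPM. The other 4 members had means above it in every group, and none was at 0 in any library.

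The osteocyte members *Dmp1* and *Mepe* had the lowest levels of the 4 in wild-type bone and the largest fold changes from it in LMNA G/G bone. In wild-type mice *Dmp1* ranged from 3.94 to 22.4 scaled TPM with a median of 10.03, in saline mice from 41.9 to 104 with a median of 81.5, and in ABE mice from 35.6 to 83.3 with a median of 60.9. Every library of both LMNA G/G groups lay above the highest wild-type library. *Mepe* ranged from 1.67 to 9.29 scaled TPM in wild-type mice (median 3.38), from 53.6 to 169 in saline mice (median 138), and from 45.8 to 110 in ABE mice (median 82.1). Here too the wild-type libraries did not overlap either LMNA G/G group. Not 1 of the 12 ABE libraries reached the saline median of *Mepe*, and for *Dmp1* 2 of 12 did.

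*Ibsp* and *Spp1* had higher levels in wild-type bone and differed from it by smaller fold changes. *Ibsp* ranged from 17.5 to 59.4 scaled TPM in wild-type mice (median 25.9), from 44.9 to 121 in saline mice (median 66.6), and from 31.5 to 89.2 in ABE mice (median 50.6). Its groups overlapped: 10 of 12 saline and 4 of 12 ABE libraries lay above the highest wild-type library. *Spp1* ranged from 36.7 to 88.9 scaled TPM in wild-type mice (median 60.1), from 120 to 388 in saline mice (median 247), and from 61.1 to 224 in ABE mice (median 140). All 12 saline libraries and 11 of 12 ABE libraries exceeded the highest wild-type library, and 0 of 12 ABE libraries reached the saline median. The plot of the members by library shows these ranges for each sex.

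**Figure D1:**
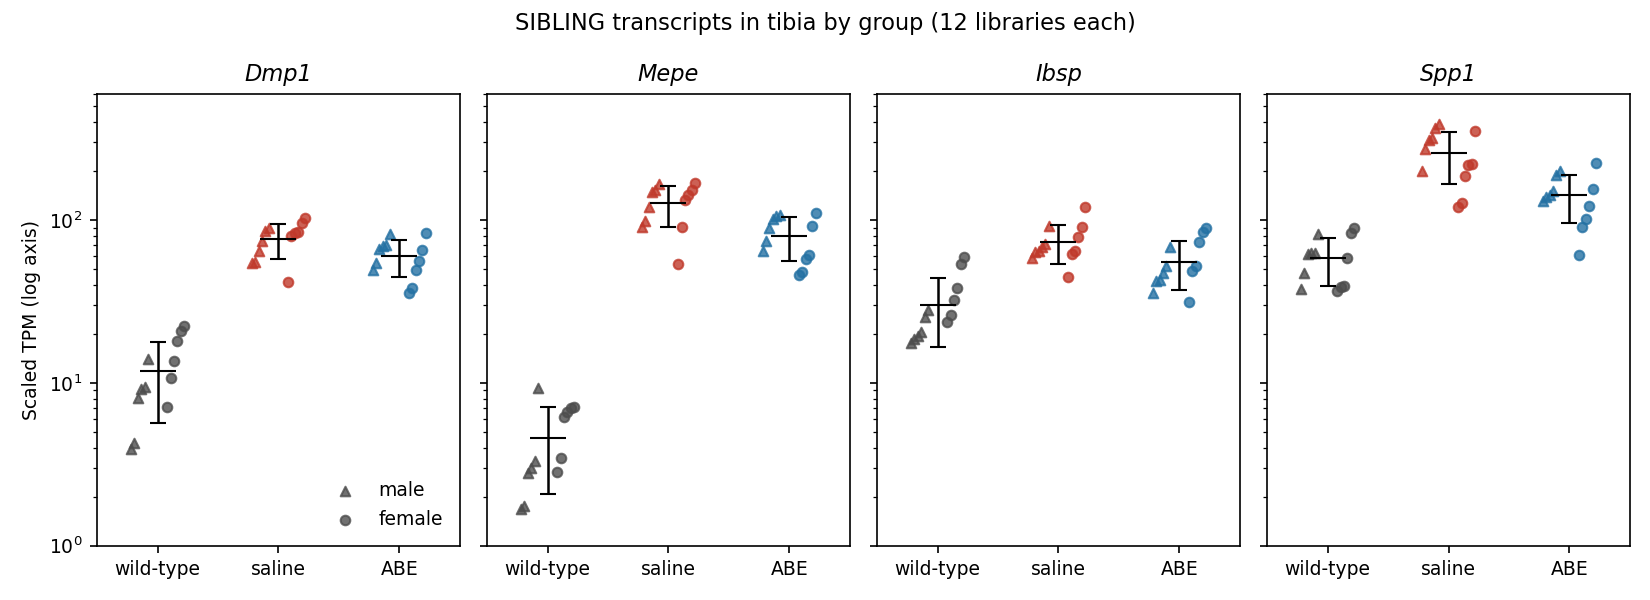
Scaled TPM (log axis) of the 4 members with values in each library, with triangles for males, circles for females, and bars for the mean and SD over 12 libraries. *Mepe* lies between 1.67 and 9.29 in wild-type and between 53.6 and 169 in saline mice, whereas the groups of *Ibsp* overlap.

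In saline LMNA G/G mice against wild-type, all 4 tested members were called higher, where 26.7% of all genes tested were called higher and 27.5% lower. That background depends on the scaling: on TPM as deposited 6.97% were called higher and 25.3% lower (median of all genes -0.13), and on TPM rescaled to their sum without the most abundant genes 9.18% and 51.6% (median -0.20). All 4 members were called higher under both. *Mepe* was higher by 4.75 on the log2 scale (SE 0.22, adjusted p = 2.6e-16), a 26.8-fold difference that was rank 2 of 16123 genes. *Dmp1* was higher by 2.77 (SE 0.19, adjusted p = 1.1e-12), or 6.84-fold, and stood at rank 9. *Spp1*, at rank 31, was higher by 2.10 (SE 0.19, adjusted p = 2.7e-10), or 4.30-fold. The smallest difference was that of *Ibsp*, 1.33 (SE 0.17, adjusted p = 9.6e-08) or 2.52-fold, at rank 190. Of all genes tested, 2.69% had every saline library above every wild-type library, and *Dmp1*, *Mepe* and *Spp1* were among them. The median difference of the 4 members was 2.44 and that of all genes 0.0013.

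In ABE mice against wild-type, all 4 members were again called higher, where 35.3% of all genes tested were called higher and 36.3% lower. On TPM as deposited 9.45% of all genes were called higher and 59.2% lower, and after rescaling to the sum without abundant genes 19.4% and 55.0% (median of all genes -0.25). *Mepe* was higher by 4.08 (SE 0.22, adjusted p = 5.2e-15), at rank 3 of 16123. *Dmp1* was higher by 2.43 (SE 0.19, adjusted p = 1.2e-11), *Spp1* by 1.27 (SE 0.19, adjusted p = 1.1e-06) and *Ibsp* by 0.91 (SE 0.17, adjusted p = 1.8e-05). *Dmp1* and *Mepe* did not overlap wild-type, as 3.41% of all genes did not in this direction. Without ABE replicate 1, the difference was 1.004 for *Ibsp* and 1.36 for *Spp1*. On TPM as deposited, where the median of all genes lay at -0.42, *Ibsp* differed by 0.34 and was not called (adjusted p = 0.26). Both comparisons share the wild-type libraries.

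When ABE mice were set directly against saline mice, 3 of the 4 members were called lower, where 24.9% of all genes tested were called lower and 26.1% higher. On TPM as deposited all 4 were called lower, but so were 44.1% of all genes, with 3.80% called higher. *Spp1* fell by 0.84 on the log2 scale (SE 0.19, adjusted p = 0.0014), which left the ABE level at 0.560 of the saline level. *Mepe* fell by 0.66 (SE 0.22, adjusted p = 0.012) and *Ibsp* by 0.42 (SE 0.17, adjusted p = 0.036). For *Dmp1* the difference was -0.34 (95% interval -0.74 to 0.05, adjusted p = 0.14), which misses the threshold. It was called on TPM as deposited (-0.75, adjusted p = 0.010), where the median of all genes lay at -0.27. The call of *Ibsp* was lost when any of 10 of the 36 libraries was left out (highest adjusted p 0.088, without ABE replicate 1), and that of *Mepe* and *Spp1* was kept without any single library. Within males alone *Spp1* (-0.95) and *Ibsp* (-0.54) were called, and within females alone no member was, with *Spp1* at -0.72 (adjusted p = 0.10), *Mepe* at -0.81 (adjusted p = 0.054) and *Ibsp* at -0.30 (adjusted p = 0.45). Within males *Mepe* was at -0.51 (adjusted p = 0.22). Of all genes tested, 1629 of 16555 were called lower within males and 2082 of 15606 within females. No member's effect was called as different between the sexes (smallest adjusted p of the limma interaction 0.52, for *Dmp1*). The plot of fold changes gives these intervals side by side.

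**Figure D2:**
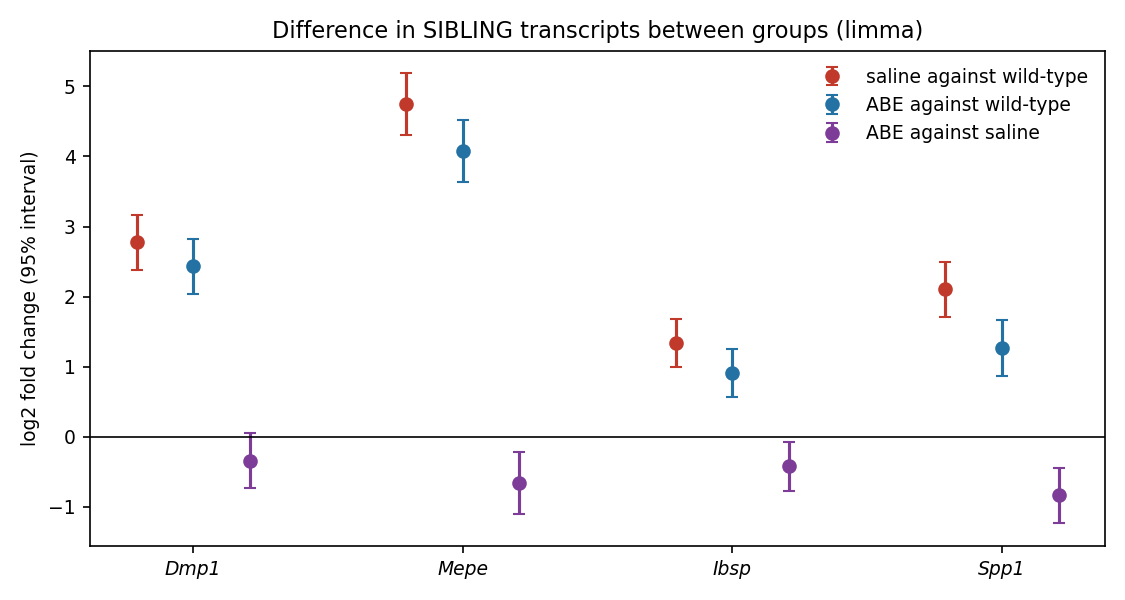
Difference in log2(scaled TPM + 0.5) for the 4 members in each of 3 comparisons, with points for the limma estimate and bars for its 95% interval. The intervals against wild-type all lie above 0, that of *Mepe* from 4.30 to 5.19 in saline mice, and in ABE against saline mice that of *Dmp1* crosses 0.

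Markers of other cells moved with these differences. The summed scaled TPM of 13 osteocyte markers (with *Sost* and *Phex*, and without the members) ran from 16.02 to 41.7 in wild-type, from 96.4 to 246 in saline and from 119 to 200 in ABE libraries, and 10 of the 11 tested were called higher in saline than in wild-type mice. A covariate was added after the data were seen, the mean log2 level of the tested genes of that list without *Phex*. With it, *Mepe* remained higher in saline mice (2.20, adjusted p = 1.8e-06), whereas *Dmp1* (0.65, adjusted p = 0.12), *Spp1* (0.59, adjusted p = 0.39) and *Ibsp* (0.39, adjusted p = 0.61) were not called. In ABE against wild-type mice *Mepe* was at 1.54 in that fit (adjusted p = 0.0011), *Dmp1* at 0.30 (adjusted p = 0.49), and *Spp1* (-0.25, adjusted p = 0.73) and *Ibsp* (-0.0342, adjusted p = 0.97) changed sign. The summed list did not overlap between wild-type and LMNA G/G libraries, and *Sost* made up much of it (means of 8.40, 122 and 115 scaled TPM in wild-type, saline and ABE mice). Overlap of the covariate itself was not examined. Since 10 of the 11 tested markers were called higher in saline mice, in this fit the covariate and the genotype cannot be told apart. Between the treated groups the osteocyte sums had medians of 167 in saline and 166 in ABE mice, and with the covariate *Mepe* fell by 0.66 (adjusted p = 4.0e-05), *Spp1* by 0.84, *Ibsp* by 0.42 and *Dmp1* by 0.34 (adjusted p = 0.0080).

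Osteoclast markers (11 genes) had median sums of 195, 465 and 254 scaled TPM in wild-type, saline and ABE mice, and 8 of the 10 tested were called lower in ABE than in saline mice. Skeletal muscle markers (12 genes) had median sums of 1076, 2184 and 6635, with a range in ABE mice from 1135 to 13756. With the muscle list as a covariate, the difference between ABE and saline mice was -0.74 for *Spp1* (adjusted p = 0.040), -0.77 for *Mepe* (adjusted p = 0.054) and -0.33 for *Ibsp* (adjusted p = 0.27). Against wild-type all 4 members were called with this covariate in both groups, *Mepe* at 4.65 in saline and 3.88 in ABE mice. Cartilage markers (14 genes) had median sums of 153, 47.4 and 58.9. Osteoblast markers (11 genes) had median sums of 1449, 1454 and 1402, which overlapped in all groups. Blood and marrow cells moved as well. Median sums in the 3 groups were 241, 269 and 196 for 10 macrophage markers, 1478, 2554 and 1581 for 8 neutrophil markers, 231, 254 and 119 for 8 erythroid markers, 43.5, 21.8 and 26.04 for 8 B cell markers, 55.6, 57.0 and 19.2 for 6 adipocyte markers and 16.01, 18.8 and 22.6 for 6 endothelial markers. Between ABE and saline mice, 9 of 10 macrophage, 7 of 8 neutrophil, 6 of 7 erythroid and 5 of 5 adipocyte markers tested were called lower, and 5 of 6 endothelial markers higher. No gene of these lists was at 0 in all libraries of a group. The part of these cells and of osteoclast and cartilage cells in the members' differences was not tested.

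Because the members differed by unequal amounts, the make-up of the family changed. In wild-type bone *Spp1* took 56.3% ± 8.31 (SD, n = 12) of the summed scaled TPM of the 4 members, *Ibsp* 28.7% ± 6.41, *Dmp1* 10.8% ± 3.28 and *Mepe* 4.23% ± 1.64. In saline mice *Mepe* took 23.97% ± 5.47 and *Ibsp* 14.1% ± 3.20, and in ABE mice 23.7% ± 3.53 and 16.8% ± 4.36. The sum itself was 105 ± 36.7 in wild-type, 534 ± 137 in saline and 338 ± 93.8 in ABE mice. The order of levels in wild-type bone was *Spp1*, *Ibsp*, *Dmp1*, *Mepe*, and each stood above the next in 12 of 12 libraries. In saline mice *Mepe* stood below *Spp1* in 11 of 12 libraries and above *Dmp1* in 12 of 12, and *Dmp1* and *Ibsp* did not differ beyond their spread (*Dmp1* was the higher in 6 of 12 libraries). In ABE mice the order was the same, with *Dmp1* above *Ibsp* in 7 of 12 libraries.

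**Figure D3:**
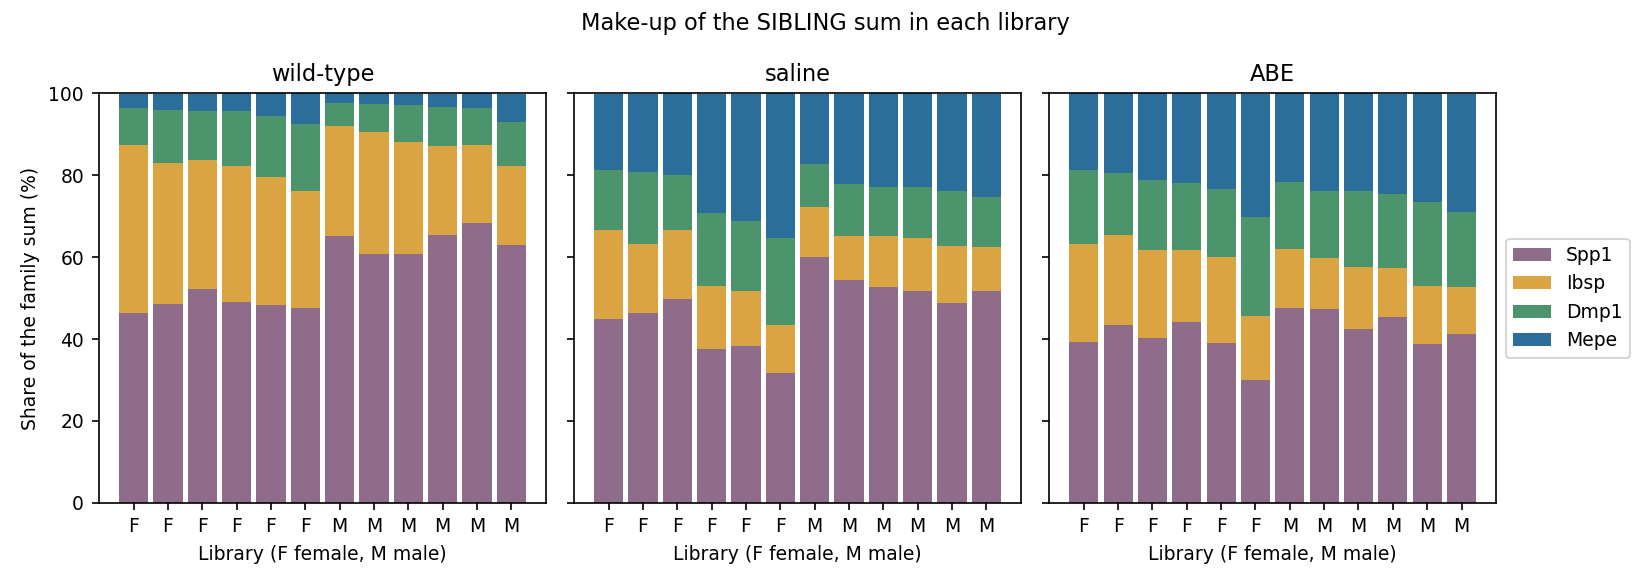
Share (%) of each of 4 members in the summed scaled TPM of the family, 1 bar per library, with females (F) and males (M) of each group side by side. *Mepe* grows from a mean of 4.23% in wild-type to 23.97% in saline and 23.7% in ABE mice, and *Ibsp* shrinks from 28.7% to 14.1% and 16.8%.

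Ratios of members within a library do not depend on how the library was scaled, and 18 of them (6 pairs, 3 comparisons) were compared with 2-sided permutation tests. The 6 ratios of a comparison share members and so are not independent, and no share over all pairs of genes was computed. All 6 differed between saline and wild-type mice. The ratio of *Dmp1* to *Mepe* was 2.60 in wild-type and 0.610 in saline mice, a difference of -2.09 on the log2 scale (permutation p = 1e-05, the smallest these permutations can give, adjusted p = 2e-05). The ratio of *Ibsp* to *Mepe* was 7.05 in wild-type and 0.589 in saline mice. In ABE against wild-type mice 5 of 6 ratios differed, and the ratio of *Ibsp* to *Spp1* did not pass (0.394 against 0.502, adjusted permutation p = 0.11).

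Between ABE and saline mice 3 of 6 ratios differed. *Dmp1* stood higher relative to *Mepe* (0.762 against 0.610, adjusted permutation p = 0.0029) and relative to *Spp1* (0.432 against 0.307, adjusted permutation p = 0.021) in ABE mice, and *Ibsp* higher relative to *Spp1* (0.394 against 0.296, adjusted permutation p = 0.044). The last was lost without any 1 of 12 of the 24 libraries compared (adjusted p up to 0.080). Within females alone neither *Dmp1* ratio passed (adjusted p = 0.14 relative to *Mepe*, 0.62 relative to *Spp1*). *Mepe* relative to *Spp1* stood at 0.567 and 0.502 (difference 0.17, adjusted permutation p = 0.38), and the ratios of *Ibsp* to *Mepe* (adjusted permutation p = 0.31) and of *Dmp1* to *Ibsp* (adjusted permutation p = 0.63) missed the threshold as well.

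Within each group, *Dmp1* and *Mepe* rose and fell together from mouse to mouse. Over the 12 libraries of a group, Pearson's r of their log2 levels was 0.92 in wild-type (Spearman's rho 0.90, permutation p = 7e-05 and 0.00025), 0.85 in saline (rho 0.74, permutation p = 0.0011 and 0.0080) and 0.95 in ABE mice (rho 0.92, permutation p = 2e-05 and 4e-05). The adjusted permutation p over 18 relations was 0.00063, 0.0067 and 0.00036 for r and 0.0015, 0.020 and 0.00072 for rho, and r without the 2 libraries farthest from the median of *Dmp1* was 0.85, 0.64 and 0.90. In all, 6 of 18 relations passed in r and 9 in rho, the same 6 among them. The others that passed in both were *Dmp1* with *Ibsp* in wild-type mice (r 0.78, rho 0.75, permutation p = 0.0027 and 0.0072, adjusted 0.0096 and 0.020, r 0.76 without 2 libraries), *Dmp1* with *Spp1* in ABE mice (r 0.76, rho 0.85, permutation p = 0.0037 and 0.00078, adjusted 0.011 and 0.0035, r 0.77 without 2 libraries) and *Mepe* with *Spp1* in ABE mice (r 0.78, rho 0.89, permutation p = 0.0021 and 0.00021, adjusted 0.0094 and 0.0015, r 0.75 without 2 libraries). Passing in rho alone were *Dmp1* with *Ibsp* in saline mice (rho 0.82, r 0.54, permutation p = 0.0018 and 0.070, adjusted 0.0063 and 0.10, r 0.54 without 2 libraries), *Dmp1* with *Spp1* in wild-type mice (rho 0.65, r 0.64, permutation p = 0.025 and 0.028, adjusted 0.049 and 0.060, r 0.58 without 2 libraries) and *Ibsp* with *Spp1* in saline mice. Without ABE replicate 1, r in ABE mice was 0.95 for *Dmp1* with *Mepe*, 0.88 for *Dmp1* with *Spp1* and 0.89 for *Mepe* with *Spp1*. The libraries of a group share their depth and tissue make-up.

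*Ibsp* and *Spp1* did not pass in r in any group as measured and passed in rho in saline mice alone, with r of 0.52 in wild-type (rho 0.38, permutation p = 0.086 and 0.23, r 0.0060 without 2 libraries), 0.63 in saline (rho 0.67, permutation p = 0.025 and 0.020, r 0.36 without 2 libraries) and 0.60 in ABE mice (rho 0.54, permutation p = 0.038 and 0.074, r 0.47 without 2 libraries). The adjusted permutation p was 0.12, 0.060 and 0.062 for r and 0.26, 0.044 and 0.11 for rho. Without ABE replicate 1, r in ABE mice was 0.41 (adjusted permutation p = 0.25). After each sex was set to its own mean, r was 0.84, 0.90 and 0.91 (adjusted permutation p = 0.0017, 0.00069 and 0.00048).

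**Figure D4:**
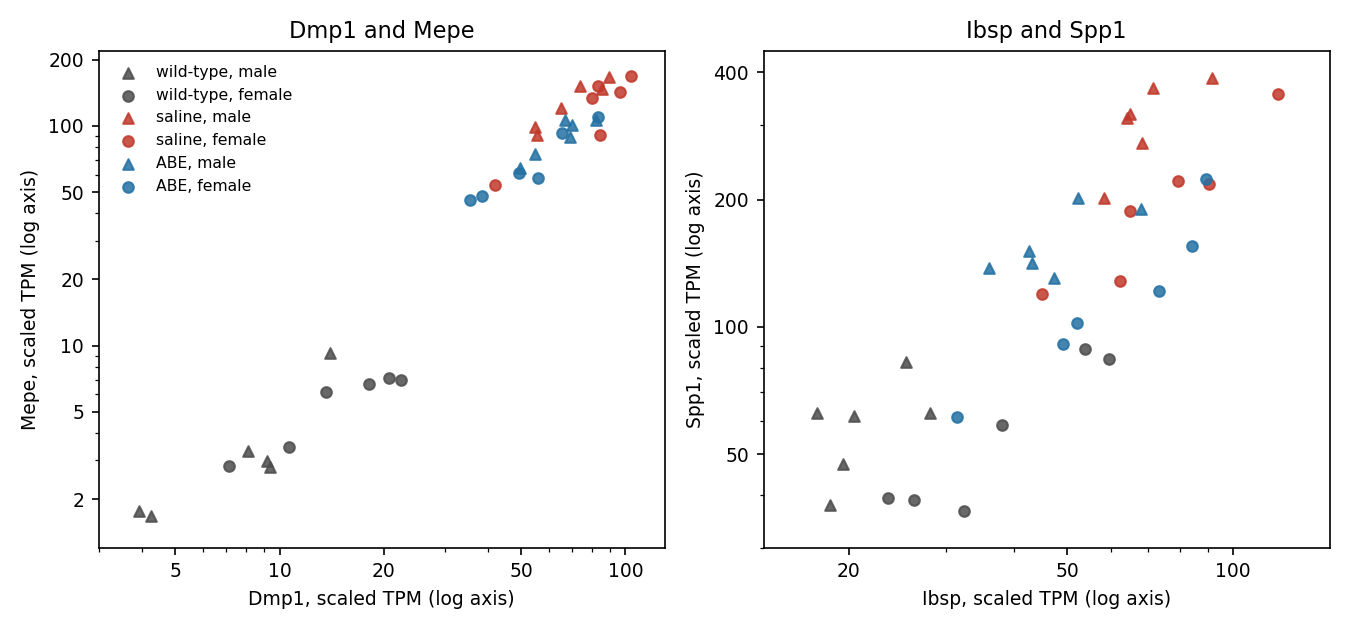
Scaled TPM (log axes) of *Mepe* against *Dmp1* and of *Spp1* against *Ibsp*, 1 point per library, with triangles for males and circles for females. *Mepe* follows *Dmp1* within each group (r of 0.92, 0.85 and 0.95), and males and females of a group lie on separate bands for *Ibsp* and *Spp1*.

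The sexes differed in the balance of *Ibsp* and *Spp1*. This comparison was added after the values were seen and was made for 6 ratios in 3 groups with 2-sided exact permutation tests of 6 females against 6 males. The ratio of *Ibsp* to *Spp1* was 0.681 in wild-type females and 0.371 in males, 0.384 and 0.228 in saline mice, and 0.514 and 0.301 in ABE mice. In each group all 6 females lay above all 6 males (exact permutation p = 0.0022, the smallest possible for 6 against 6, adjusted over 18 tests 0.0097). The ratio of *Dmp1* to *Spp1* was also higher in females of the wild-type (0.266 against 0.129, adjusted exact permutation p = 0.0097) and saline groups (0.410 against 0.229, adjusted exact permutation p = 0.016), and in ABE mice it was 0.453 against 0.412 (adjusted exact permutation p = 0.72). *Dmp1* relative to *Mepe* was higher in saline females (0.679 against 0.549, adjusted exact permutation p = 0.043). In ABE mice *Ibsp* was higher relative to *Mepe* in females (0.908 against 0.531, adjusted exact permutation p = 0.033) and *Dmp1* lower relative to *Ibsp* (0.881 against 1.37, adjusted exact permutation p = 0.034). *Mepe* was higher relative to *Spp1* in wild-type females (0.0964 against 0.0526, adjusted exact permutation p = 0.032). Whether these differences between the sexes themselves differ between groups was not tested.

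For single members no difference between the sexes passed the threshold over all genes. In wild-type mice *Dmp1* was 15.4 ± 5.99 scaled TPM in 6 females and 8.14 ± 3.73 in 6 males (log2 difference 0.91, adjusted p = 0.13), and *Ibsp* 38.9 ± 14.7 and 21.6 ± 4.22 (0.77, adjusted p = 0.14). These were 0 of 4 members, where 0.316% of all genes tested were called between the sexes in wild-type, 0.589% in saline and 4.93% in ABE mice. In saline mice *Spp1* was 205 ± 85.3 in females and 310 ± 67.3 in males (-0.66, adjusted p = 0.23). At an unadjusted limma p under 0.05, 3 members in wild-type mice (*Dmp1*, *Ibsp* and *Mepe*), 1 in saline (*Spp1*) and 0 in ABE mice differed, where 13.5%, 16.0% and 20.2% of all genes tested did. Limma-voom on recovered reads called 0 members in each group.

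The effects in males and females were compared directly by interaction, and 0 of 4 members were called in any of the 3 comparisons, where 0.478% of all genes tested were for saline against wild-type, 2.95% for ABE against wild-type and 0.0248% for ABE against saline mice. The largest was *Dmp1* in ABE against wild-type mice, whose difference was 1.203 larger in males on the log2 scale (95% interval 0.41 to 1.99, adjusted p = 0.076, unadjusted limma p = 0.0040). That of *Mepe* was 1.12 larger in males (95% interval 0.23 to 1.999, adjusted p = 0.14, unadjusted limma p = 0.015). These were 2 of 4 members at an unadjusted limma p under 0.05 in that comparison, where 19.4% of all genes tested were under it, and 0 of 4 for saline against wild-type (22.0% of all genes) and ABE against saline mice (16.3%). Limma-voom called 0 members in each. Without wild-type replicate 10 both were called (1.38 and 1.40, adjusted p = 0.025 and 0.024), and *Dmp1* also without wild-type replicate 5 (1.39, adjusted p = 0.026). With array weights *Dmp1* was called too (1.67, adjusted p = 0.0049), where 2678 of 16123 genes were called against 476 in the main fit. On TPM as deposited *Dmp1* was called as well (1.67, adjusted p = 0.043). There 385 of the 388 genes called went in the same direction, and the median of all genes lay at 0.29.

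Genes whose levels varied most like the members were sought over 36 libraries, after the mean of each group and sex was removed, among 3941 genes with a mean of at least 5 scaled TPM. The gene most like *Dmp1* was *Mepe* (r 0.91), followed by *Ccdc194* (0.90), *Ccn4* (0.86), which encodes a matricellular protein induced by Wnt signals, *Ptgis* (0.86), the prostacyclin synthase gene, and *Fat1* (0.84), a protocadherin gene. *Mepe* was most like *Dmp1*, *Ccdc194* (0.91), *Fat1* (0.86), *Sost* (0.84), which encodes the osteocyte Wnt inhibitor sclerostin, and *Ackr3* (0.82). *Ibsp* was most like *Mmp13* (0.89), a collagenase of bone, *Spp1* (0.88), *Acp5* (0.88), which encodes the osteoclast phosphatase TRAP, *Tnc* (0.86), which encodes the matrix protein tenascin C, and *Ctsk* (0.86), the collagen protease of osteoclasts. *Spp1* was most like *Mmp13* (0.91), *Tnc* (0.88), *Ibsp* (0.88), *Ckb* (0.88) and *Serpine2* (0.88). Thus the 5 genes nearest to *Dmp1* and *Mepe* held neither *Ibsp* nor *Spp1*, which stood at ranks 53 and 16 for *Dmp1* and 116 and 37 for *Mepe*. The points share depth and tissue make-up, and these values are a description.

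Of the kinase and the proteases that act on SIBLING proteins, 14 genes were listed and 9 tested, of which 7 were called higher and 0 lower in saline against wild-type mice, 6 and 1 in ABE against wild-type, and 1 and 3 in ABE against saline mice. The median log2 difference of the list was 0.74, 0.86 and -0.0085, where that of all genes was 0.0013, -0.022 and -0.0023. For this list and those below, 26.7% of all genes tested were called higher and 27.5% lower in saline against wild-type mice. These shares were 35.3% and 36.3% in ABE against wild-type, and 26.1% and 24.9% in ABE against saline mice. *Fam20c*, the kinase, rose from 1.81 scaled TPM in wild-type to 3.92 in saline (log2 difference 0.95, SE 0.12, adjusted p = 1.2e-07) and 4.22 in ABE mice. *Phex*, an endopeptidase that degrades acidic peptides of these proteins and is also one of the osteocyte markers above, rose from 2.98 to 9.48 (1.61, SE 0.14, adjusted p = 7.7e-11) and 8.73. *Bmp1*, the protease that cleaves DMP1 and DSPP precursors, was called by a small margin in saline mice (0.30, adjusted p = 0.048). *Ctsk* was at 56.0, 181 and 108 scaled TPM in the 3 groups, and *Mmp9*, a gelatinase of osteoclasts, at 52.0, 90.1 and 59.5. Both were higher in saline than in wild-type mice and lower in ABE than in saline mice (*Ctsk* -0.76, adjusted p = 0.0058, *Mmp9* -0.62, adjusted p = 0.0034). *Mmp2*, another gelatinase, was called in ABE mice alone of the comparisons with wild-type (0.96, adjusted p = 1.8e-05, where saline mice had 0.41, adjusted p = 0.052), and it was higher in ABE than in saline mice (0.55, adjusted p = 0.011).

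Of 12 genes for receptors of SIBLING proteins, 11 were in the table and 9 were tested. In saline against wild-type mice 4 were called higher and 1 lower, in ABE against wild-type 5 and 2, and in ABE against saline mice 2 and 2. The median log2 difference of the list was 0.080, 0.40 and 0.064. The partners of the vitronectin receptor moved in opposite directions. *Itgav* rose from 2.90 scaled TPM in wild-type to 5.04 in saline (0.70, SE 0.09, adjusted p = 1.8e-07) and 4.30 in ABE mice, whereas *Itgb3* fell from 29.2 to 19.1 (-0.66, SE 0.19, adjusted p = 0.0048) and 12.02 (-1.37, SE 0.19, adjusted p = 2.8e-07). *Itgb3* is also made by megakaryocytes and platelets. *Cd44*, which encodes a receptor for osteopontin and hyaluronan, rose from 7.87 to 13.6 (0.75, adjusted p = 1.7e-08) and 12.7. *Itgb5*, another partner of the alpha v chain, was at 8.37, 8.82 and 11.7 and was called in ABE mice (0.48 against wild-type, adjusted p = 8.4e-05).

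Of 14 transcription factors known to act on SIBLING genes, 12 were tested, and 11 were called higher and 0 lower in saline and 12 and 0 in ABE against wild-type mice. The median log2 difference was 0.71 and 0.76. Their changes were smaller than those of *Mepe* and *Dmp1*. *Runx2*, the factor required for osteoblast formation, was at 3.88, 4.56 and 4.58 scaled TPM (0.21 and 0.20 against wild-type, adjusted p = 0.023 and 0.022). *Sp7* (osterix), which acts downstream of *Runx2*, was at 5.12, 7.96 and 8.96 (0.64 and 0.77, adjusted p = 1.8e-05 and 4.4e-07). *Mef2c*, a factor of osteocytes and of muscle, was at 2.63, 5.60 and 8.90, and the AP-1 genes *Fos* and *Jun* at 1.297, 5.26 and 5.62 and at 2.91, 5.24 and 9.998. Between ABE and saline mice 3 factors were called higher and 1 lower, with *Mef2c* (0.60, adjusted p = 0.0024) and *Jun* (0.84, adjusted p = 0.00097) among the higher. The summed muscle markers given above moved in the same direction as *Mef2c*, and their part in it was not tested.

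**Figure D5:**
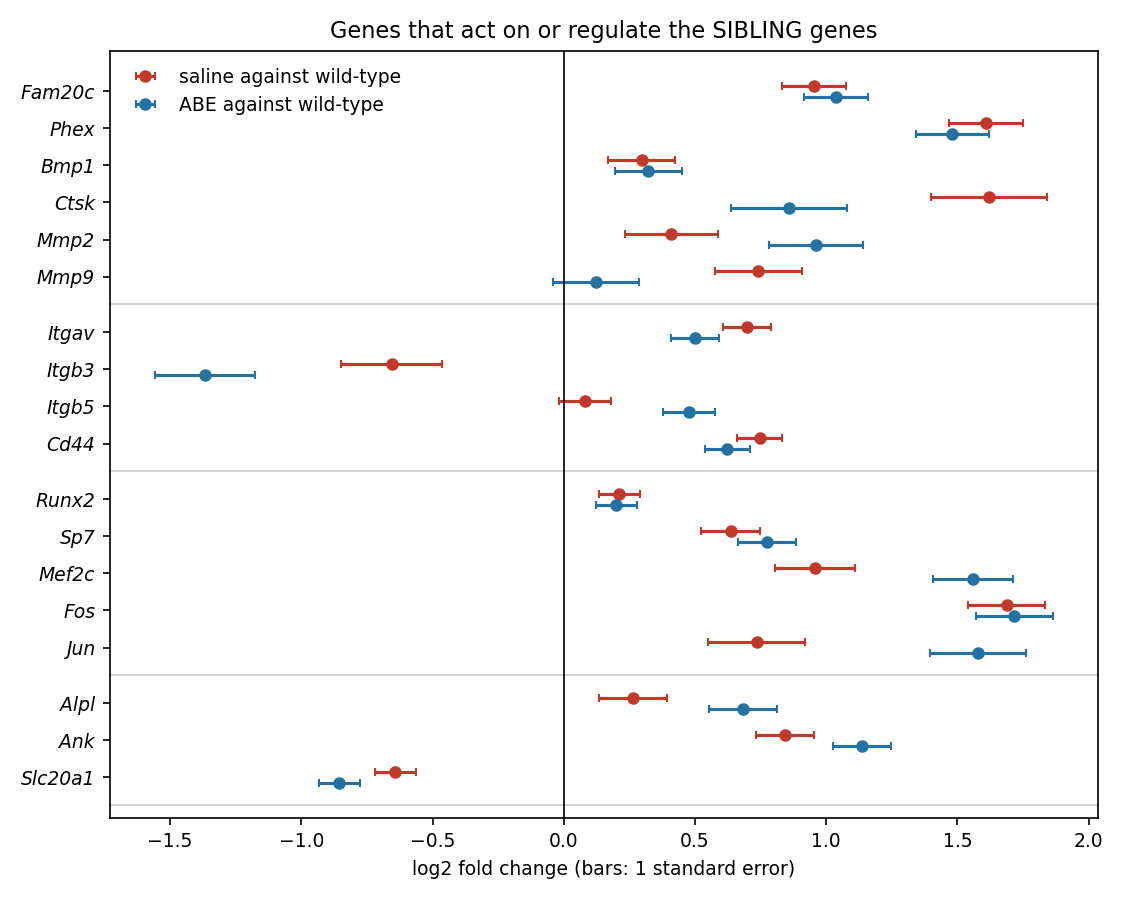
Difference in log2(scaled TPM + 0.5) from wild-type for 18 genes that act on SIBLING proteins or genes, from top to bottom the kinase and proteases, receptors, transcription factors and phosphate partners, with bars of 1 standard error. *Phex* lies at 1.61 and 1.48 and *Fos* at 1.69 and 1.72 in saline and ABE mice, and *Itgb3* and *Slc20a1* lie below 0.

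Of 8 partners in phosphate and pyrophosphate handling, 7 were tested, of which 3 were called higher and 1 lower in saline and 5 and 1 in ABE against wild-type mice, and 3 higher and 1 lower in ABE against saline mice. The median log2 difference was 0.26, 0.66 and 0.15. *Ank*, which encodes an exporter involved in extracellular pyrophosphate, was at 7.86, 14.6 and 18.1 scaled TPM (0.84 and 1.13 against wild-type, adjusted p = 1.8e-07 and 5.2e-10). *Alpl*, the phosphatase that hydrolyses pyrophosphate, was at 9.52, 10.8 and 14.6 and was called in ABE mice (0.68, adjusted p = 2.3e-05). *Slc20a1*, a phosphate transporter, was lower in both groups (-0.64 and -0.85, adjusted p = 5.1e-08 and 1.7e-10).

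Relatives and neighbours of the family were counted in the same way. Of 10 listed relatives from enamel, milk and matrix, only *Sparc* and *Sparcl1* passed the filter, and the enamel and milk genes did not. *Sparc*, which was called in no comparison and was named after its values were seen, was at 142, 161 and 160 scaled TPM (0.15 and 0.20 against wild-type, adjusted p = 0.52 and 0.33), and *Sparcl1* at 5.95, 4.53 and 9.88 and was called in ABE mice (0.68, adjusted p = 0.010). Within 500 kb of the cluster 24 other genes are annotated, 22 of them in the table and 10 tested, of which 4 were called higher and 1 lower in saline against wild-type mice and 5 and 3 in ABE against wild-type. Of all genes tested, 26.7% were called higher and 27.5% lower in the former comparison, and 35.3% and 36.3% in the latter. *Aff1*, which stands before the cluster, was at 7.26, 6.78 and 6.39 scaled TPM (-0.09 in saline and -0.17 in ABE mice, adjusted p = 0.11 and 0.0015). *Mir5619*, a short RNA of 61 bp, had at most 21 reads in a library, and its value is uncertain. Gm42793, which was called higher in saline mice (1.19, adjusted p = 1.6e-08), lies within *Spp1* on the same strand (chr5:104435121-104436372) and may share its reads. It was named after its values were seen.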

How the data were processed

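Total RNA of 36 tibiae was sequenced as stranded poly(A) libraries. Per the study's methods, reads were aligned to GRCm38 with STAR (the submitters' notes give version 2.73a) and counted on GENCODE M24 genes with QoRTs. The authors deposited TPM for 56246 genes, and how TPM were calculated was not given in the sources used here. Multiplied by gene length less 218 bp, and by 1 where that falls under 1 bp, the values of a library turned into multiples of 1 read: 100% came out whole within 0.02 reads. Intervals and floors from reads cover counting error only. No column was of an unknown sample, and 0 pairs of libraries were identical. Groups were taken from genotype and treatment labels. The titles of 3 LMNA G/G libraries hold the letters WT, and their genotype label is LMNA G/G. Nothing in the labels pairs mice, and each library is 1 mouse.

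Libraries were rescaled by the median ratio over 14219 genes above 0 in every library. Genes with a mean of at least 0.5 deposited TPM were tested with limma 3.58.1 in R 4.3.3 on log2(scaled TPM + 0.5), with group-by-sex means, 36 libraries in 1 fit and Benjamini-Hochberg adjustment. The study used a count model. Here the main test was limma, because the deposited unit is TPM, and recovered reads were tested with limma-voom as an alternative. Permutation tests drew 100000 resamples, and those of 6 against 6 libraries were exact. Ratios and correlations were computed in Python 3.11.15 with scipy 1.17.1, numpy 2.4.6 and pandas 2.3.3, and plots were drawn with matplotlib 3.10.9.

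The members, lists and tests were chosen with earlier results of these data known. Of each list, all genes were counted, and up to 4 with a mean of at least 5 scaled TPM in a group, a call in at least 1 comparison and the largest difference were named, beside *Fam20c*, *Phex*, *Bmp1*, *Itgav*, *Itgb3*, *Cd44*, *Runx2* and *Sp7*. *Sparc* and Gm42793 were named outside this rule. Neighbours needed a mean of 5 scaled TPM. For each member the 5 genes with the highest r were named. Marker lists were osteocyte, osteoblast, osteoclast, macrophage, skeletal muscle, cartilage, neutrophil, B cell, erythroid, adipocyte and endothelial. A list used as a covariate entered as the mean log2 level of its tested genes, without *Phex*. Alternatives were other scalings (deposited TPM, quantile normalization, TPM rescaled to their sum without the 50 most abundant genes, mitochondrial genes and genes up to 250 bp), pseudocounts of 0.1 and 1, no filter or a filter at 5 TPM, array weights, no sex covariate, only the groups compared, either sex alone, limma-voom on recovered reads, the skeletal muscle or (added after the data were seen) osteocyte list as a covariate, and each library left out.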

Additional observations from a re-analysis of the deposited data

Results flagged for a closer look

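In wild-type males, *Mepe* was 9.29 scaled TPM in replicate 10, where the next highest of the 6 was 3.32, a gap of 0.783 of the range of the group. It was the only 1 of 24 groups of 6 (4 members, 3 groups, both sexes) whose extreme library passed Dixon's 95% critical value, and chance alone flags about 1 in 20 such groups. *Dmp1* of the same mouse was the highest of the wild-type males, at 13.99. Without this library *Mepe* was higher by 4.89 in saline and by 4.23 in ABE mice on the log2 scale, against 4.75 and 4.08 with it, and the difference of the latter between males and females was called (1.40, adjusted p = 0.024 by limma). The cause was not tested.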

How the results depend on the processing

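In the comparisons with wild-type, all 4 members kept their direction and their calls whichever library was left out. The differences then ran from 4.67 to 4.89 for *Mepe*, 2.68 to 2.86 for *Dmp1*, 2.02 to 2.17 for *Spp1* and 1.26 to 1.41 for *Ibsp* in saline mice, and from 4.003 to 4.23, 2.33 to 2.52, 1.17 to 1.36 and 0.85 to 1.004 in ABE mice. In ABE against saline mice *Ibsp* ran from -0.49 to -0.33, and 10 of 36 such fits lost its call. No paired analysis was possible because the labels give no replicate numbers that groups share. *Dspp* had at most 3 reads in a library, too few to compare the groups.

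With the osteocyte list as a covariate (added after the data were seen), *Dmp1* (0.65 in saline and 0.30 in ABE mice), *Spp1* (0.59) and *Ibsp* (0.39) were not called against wild-type, *Spp1* (-0.25) and *Ibsp* (-0.0342) in ABE mice changed sign, and *Dmp1* was called in ABE against saline mice (-0.34). On deposited TPM *Ibsp* in ABE against wild-type mice (0.34) was not called and *Dmp1* in ABE against saline mice (-0.75) was. In females alone *Ibsp* was not called in ABE against wild-type mice (0.69). In ABE against saline mice, calls were lost for *Ibsp* with no filter (-0.42), no sex covariate (-0.42), females only (-0.30) and the muscle covariate (-0.33), for *Mepe* with males only (-0.51), females only (-0.81) and the muscle covariate (-0.77), and for *Spp1* with females only (-0.72). The causes were not tested, and fits within 1 sex hold 6 libraries a group.

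Numbers of genes called moved by over 1.5 times as follows. Against wild-type, saline mice gave 8740 calls, 5195 on deposited TPM (1123 higher, 4072 lower), 13589 with no filter, 2165 with the filter at 5 TPM (fewer genes tested), 3351 in females and 1605 with the osteocyte covariate. ABE mice gave 11536, and 19533 with no filter, 2739 with the filter at 5 TPM, 5409 with the muscle and 968 with the osteocyte covariate. ABE against saline mice gave 8228, and 1896 with the filter at 5 TPM, 3450 in males, 4760 in females and 1213 with the muscle covariate. Limma-voom on recovered reads called 8922, 11472 and 8174.

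Sex differences of the effects gave unsteady counts. For saline against wild-type mice they were 77, and 0 on deposited TPM, on TPM rescaled without abundant genes and with a pseudocount of 1, 338 with quantile normalization, 179 with a pseudocount of 0.1, 1 with no filter and with the muscle covariate, 6 with the filter at 5 TPM, 3299 with array weights, 394 with limma-voom and 879 on the groups compared. At an unadjusted limma p under 0.05 that comparison had 3553. For ABE against wild-type mice they were 476, and 867 with quantile normalization, 36 with the filter at 5 TPM, 2678 with array weights, 959 with the muscle covariate and 21 on the groups compared. For ABE against saline mice they were 4 (2628 at an unadjusted limma p under 0.05), and 2 on deposited TPM, 9 with a pseudocount of 0.1, 2028 with array weights, 20 with the muscle covariate and 0 with quantile normalization, no filter and the groups compared. Leaving out 1 library gave 0 to 1076, 138 to 1228 and 0 to 400. Of the members, *Dmp1* was called in ABE against wild-type mice on deposited TPM (1.67) and with array weights (1.67), and *Mepe* with array weights (1.63). With 1 library left out the differences of *Dmp1* and *Mepe* ran from 1.03 to 1.39 and from 0.97 to 1.40. On deposited TPM 385 of the 388 genes called for ABE against wild-type mice went in the same direction as *Dmp1* (median of all genes 0.29).

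On deposited TPM, *Dmp1* (-1.04), *Mepe* (-1.18) and *Spp1* (-1.18) were called lower in ABE females than in males, as were 66.2% of all genes (median -0.52). Within 1 sex, the log2 ratio of *Ibsp* to *Spp1* in ABE against wild-type mice was called in females (-0.40). Against saline mice, *Dmp1* to *Ibsp* (0.44) and *Mepe* to *Spp1* (0.44) were called in males, and *Dmp1* to *Mepe* (0.24) and *Dmp1* to *Spp1* (0.14) lost their calls in females. With 1 library left out, *Ibsp* to *Spp1* ran from -0.43 to -0.28 against wild-type and from 0.36 to 0.48 against saline mice. Correlations that did not pass in r as measured and passed after each sex was set to its mean were *Dmp1* with *Spp1* (r 0.89), *Ibsp* with *Spp1* (0.84) and *Mepe* with *Spp1* (0.77) in wild-type, *Dmp1* with *Spp1* (0.68) and *Ibsp* with *Spp1* (0.90) in saline, and *Dmp1* with *Ibsp* (0.71), *Ibsp* with *Mepe* (0.64) and *Ibsp* with *Spp1* (0.91) in ABE mice. On deposited TPM *Dmp1* with *Ibsp* (0.69 and 0.86), *Ibsp* with *Spp1* (0.76 and 0.91) in both treated groups and *Ibsp* with *Mepe* (0.82) in ABE mice passed. On that scale ABE replicate 1 was the lowest ABE library for each member. It stood at 10.6 for *Dmp1*, 6.80 for *Ibsp*, 13.2 for *Mepe* and 13.2 for *Spp1*, where the ABE medians were 53.9, 50.7, 72.5 and 123. The correlations on deposited TPM were not computed without it.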
